A study of Mus musculus with 7 samples.

Results

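The genes described here are 8 genes of lipid-associated and recruited macrophages: Gpnmb, Trem2, Lgals3, Mmp12, Itgax, Itgam, Ccr2 and Ccl2. They were chosen by name and found through the RefSeq accession of each probe, which gave 11 of the 39429 probes of the array and 8 of its 32451 genes (a probe without a name counting as a gene). Liver RNA came from male mice, strain given as C57/BJ, that were put on a high-fat diet (HFD, D12331) or on control chow at 6 weeks of age and killed after 20 weeks of feeding, at 26 weeks. There were 4 chow samples and 3 HFD samples, each on its own 1-colour Agilent array. A table of processed log2 values deposited by the authors holds 5 of the 8 genes (Gpnmb, Itgax, Itgam, Ccr2 and Ccl2), where 4.59% of all genes of the array are listed and 2.47% are listed with higher values in HFD, and the diets were compared in it. Trem2, Lgals3 and Mmp12 are not listed there and were measured on the HFD arrays alone.

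The liver has its own resident macrophages, the Kupffer cells, which sit in the sinusoids and are defined by genes such as Clec4f and Timd4. In fatty liver, monocytes are drawn from the blood, in large part through the chemokine CCL2 and its receptor CCR2, and some become lipid-associated macrophages that express Trem2, Gpnmb, Lgals3 and Mmp12 and often the integrin gene Itgax. Such cells are known from obese adipose tissue and from fatty and fibrotic liver. In bulk liver RNA, a change in the number of such cells and a change in RNA per cell cannot be told apart.

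The measurements were limited in ways that touch every value below. The 3 HFD scanner files followed their own columns of the value table (Pearson r of at least 0.99992 across 1615 probes, which are not independent replicates), but the 4 scanner files labelled chow did not (r of 0.580 to 0.589), so chow values come from the table alone. When these chow files were fitted against the HFD files all the same, 80.1% of the 20927 genes tested differed. The table lists only probes whose diet groups do not overlap (1615 of 1615 probes and 100% of its genes), so tests within it are not independent evidence. The HFD arrays were scanned on 1 day, the scan day behind the chow values is not known, and diet and scan day cannot be told apart. HFD replicate 1 had the highest mean negative control signal, 46.9 against 29.9 to 31.4 on the other 6 arrays, and 57.0% of its spots were well above background, against 62.3% and 66.8% on the other HFD arrays. The labels name no animals, so p-values measure the spread between these samples, which may be technical. On the HFD arrays, 12 of 12 hepatocyte genes and 19 of 19 Kupffer cell genes gave a signal well above background on 2 arrays or more. So did 19500 of the 32451 genes of the array and 10 of 10 stellate cell and fibroblast genes, so detection alone does not identify the tissue.

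Of the 5 macrophage genes in the table, all had higher values in HFD than in chow, and Gpnmb, Itgam and Ccr2 rose past an adjusted p of 0.05 in a limma linear model. Itgax and Ccl2 did not pass. By this rule 0.977% of all genes of the array were called higher and 0.801% lower, or 21.3% and 17.5% of the genes listed in the table. The 5 genes had a median log2 difference of 2.35, beside 0.82 over the 801 genes of the table that were higher in HFD. With chow values raised to the highest detection floor of the HFD arrays, the log2 difference was 2.55 for Gpnmb and 2.29 for Ccr2. It did not change for Itgam, Itgax and Ccl2. The value of 0.82 was not recomputed this way. Since the table was selected on this comparison, neither the shared direction nor the absence of overlap is a result about these genes. An exact two-sided permutation test gave p = 0.0571 for each of them, the smallest value that 4 against 3 samples allow. Groups that do not overlap always give this value, so 100% of the table's genes share it and it tests nothing here.

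**Figure D1:**
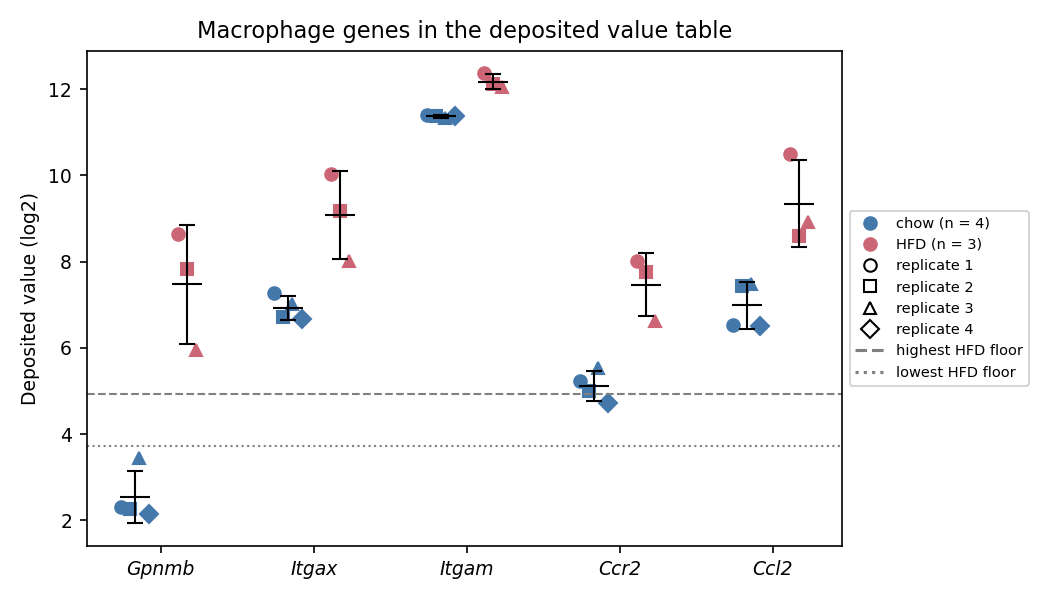
Deposited log2 values (vertical axis) of the 5 macrophage genes of the value table, in 4 chow samples (blue) and 3 HFD samples (red), with marker shape for the replicate and black bars for the mean and SD. The dashed and dotted lines are the highest (4.93) and lowest (3.72) detection floors of the HFD arrays, and the 4 chow values of Gpnmb lie below both.

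Among the lipid-associated genes, Gpnmb, which encodes a transmembrane glycoprotein of phagocytes with a lysosomal role, had the largest fitted difference of the 5. Its deposited log2 values were 2.31, 2.27, 3.45 and 2.15 in chow replicates 1 to 4, and 8.64, 7.84 and 5.95 in HFD replicates 1 to 3. The HFD samples were all high but far apart, with HFD replicate 3 the lowest, and in chow only replicate 3 stood above the rest. The detection floor of an array is here the lowest deposited value among probes of the table well above background on that array. Probes outside the table did not enter it. It was 4.93, 4.16 and 3.72 on HFD replicates 1, 2 and 3. All 4 chow values of Gpnmb lay below each of these. The scale of the chow values is unknown, so the HFD floors are only a stand-in there and give no firm limit. With chow set to the highest HFD floor, Gpnmb was 5.86-fold higher in HFD, and 13.5-fold with the lowest. The 5.86-fold value became 3.91-fold when HFD replicate 1 was left out, 5.17-fold when replicate 2 was, and 9.94-fold when replicate 3 was. The fit on the values as deposited gave a log2 difference of 4.93 with an SE of 0.64 (limma, adjusted p = 0.0259), and the call was lost with chow raised to the highest floor (adjusted p = 0.0765).

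Trem2 encodes a lipid-sensing receptor of macrophages, and its RNA was well above background on all 3 HFD arrays. Scanner levels are given as log2 of the processed signal minus the 75th percentile of the array, and they cannot be set against those of another probe. The level of Trem2 was 1.07, 0.92 and -0.67 in HFD replicates 1, 2 and 3, a mean of 0.44 ± 0.96 (SD, n = 3). HFD replicates 1 and 2 were close together, and HFD replicate 3 lay 3.33-fold below replicate 1.

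Lgals3 encodes galectin-3, a secreted lectin of activated macrophages. Its scanner level was 3.55, 1.96 and 1.43 in HFD replicates 1, 2 and 3, a mean of 2.31 ± 1.10 (SD, n = 3). Here HFD replicate 1 stood apart, 3.00-fold above replicate 2 and 4.35-fold above replicate 3.

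Mmp12, macrophage elastase, was the one lipid-associated gene not well above background on all 3 HFD arrays. Its brighter probe read -2.74, -4.43 and -5.32 in HFD replicates 1, 2 and 3, and it was well above background on replicates 1 and 2 but not on replicate 3. A further probe of Mmp12 was not well above background on any HFD array. HFD replicate 1 exceeded HFD replicate 2 by 3.22-fold, while the value of replicate 3 is only an upper limit. Trem2, Lgals3 and Mmp12 have no chow value in the table, and no diet difference is given for them.

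**Figure D2:**
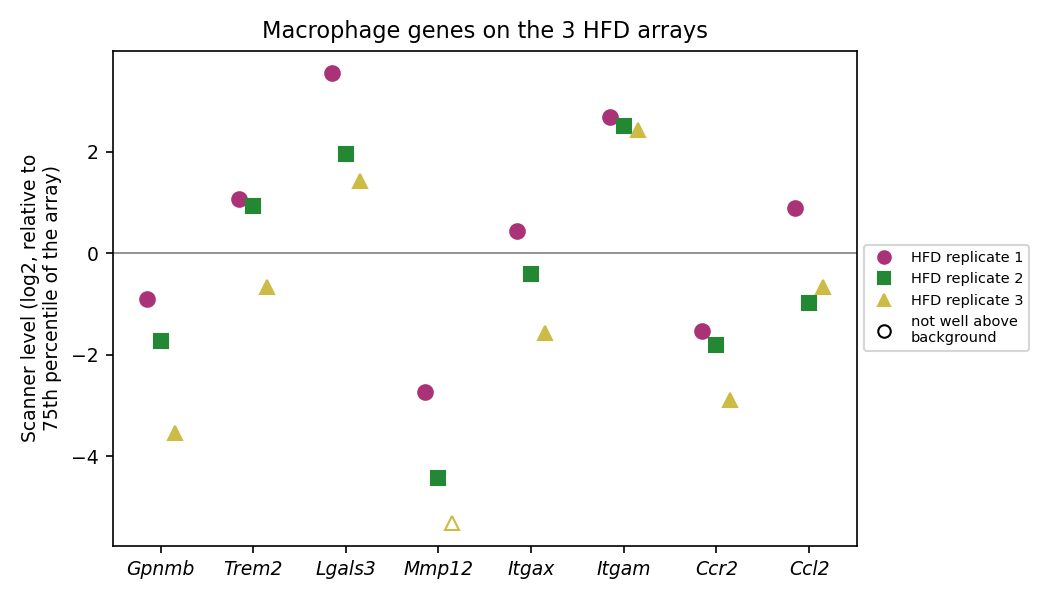
Scanner level of the 8 macrophage genes on the 3 HFD arrays, as log2 of the processed signal relative to the 75th percentile of the array (vertical axis), with colour and shape for the replicate and an open symbol where the probe was not well above background. HFD replicate 1 is the highest point for each of the 8 genes, and HFD replicate 3 is the lowest for all but Ccl2.

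The integrin alpha chain genes Itgam (CD11b, of monocytes, macrophages and neutrophils) and Itgax (CD11c, of dendritic cells and lipid-associated macrophages) lie next to each other on chromosome 7, and both were in the table. They differed in size of change and in spread. Itgam had deposited values of 11.39, 11.37, 11.33 and 11.38 in chow and 12.37, 12.12 and 12.04 in HFD, so both groups were tight and separated by 0.65 at the nearest. The listed probe of Itgam rose 1.75-fold (log2 difference 0.81, SE 0.11, limma adjusted p = 0.0266). Of the 801 table genes higher in HFD, 404 had a larger fold than Itgam. Other bright probes, such as those of Snap25 (log2 difference 0.85) and Oprm1 (0.87), had a like shift and the same order of HFD replicates. Whether the shift of Itgam is particular to this gene was not tested. Itgax had values of 7.28, 6.73, 7.02 and 6.67 in chow and 10.04, 9.18 and 8.01 in HFD. The HFD values of Itgax spread over more than 2 on the log2 scale, with replicate 3 nearest to chow. Its log2 difference was 2.15 with an SE of 0.44, a 4.44-fold difference that did not pass (limma, adjusted p = 0.0637). It passed without HFD replicate 3 (adjusted p = 0.0255 and 6.43-fold), and was 3.18-fold without HFD replicate 1.

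The 3 probes of Itgam disagreed. The probe in the table was bright and steady on the HFD scanner files, at 2.69, 2.51 and 2.44 in replicates 1, 2 and 3, a range of 1.19-fold. The probe designed on the other RefSeq transcript read -2.71, -5.49 and -4.84, with replicate 2 not well above background, a range of 6.86-fold. The remaining probe read -3.37, -4.31 and -4.09, a range of 1.93-fold. All 3 were highest on HFD replicate 1, but neither of the dim probes is listed in the table.

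The bases upstream of the 2 integrin genes, and of Trem2 and Gpnmb, are shown because they are the starts of the neighbouring integrin pair, whose fold changes differed in size, and of the receptor and glycoprotein genes most tied to lipid-associated macrophages. Each is the 250 bases before the RefSeq start, from GRCm38.p6 and on the plus strand, with capitals for matches to any of 7 motifs searched on both strands. The ETS core bound by PU.1 was searched as AGGAAGT, the motif of AP-1 factors as TGANTCA, and the boxes of MITF and TFE factors as TCATGTG and, in the palindromic form, as CACGTG. The C/EBP motif was searched as TTNNGCAA, the NF-kB motif as GGGANTTCC and the TATA box as TATAAA, and none of these contains another.
Itgax, chr7:128129300-128129549: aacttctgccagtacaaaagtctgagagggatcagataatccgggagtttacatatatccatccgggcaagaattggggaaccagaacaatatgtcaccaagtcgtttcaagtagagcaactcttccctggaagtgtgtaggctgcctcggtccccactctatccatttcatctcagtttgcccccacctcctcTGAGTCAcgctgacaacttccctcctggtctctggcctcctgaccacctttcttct
Itgam, chr7:128062390-128062639: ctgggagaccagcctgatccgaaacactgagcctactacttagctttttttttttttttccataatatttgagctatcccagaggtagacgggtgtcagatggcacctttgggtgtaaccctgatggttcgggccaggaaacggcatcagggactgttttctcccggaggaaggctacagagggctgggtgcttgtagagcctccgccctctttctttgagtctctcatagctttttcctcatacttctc
Trem2, chr17:48346151-48346400: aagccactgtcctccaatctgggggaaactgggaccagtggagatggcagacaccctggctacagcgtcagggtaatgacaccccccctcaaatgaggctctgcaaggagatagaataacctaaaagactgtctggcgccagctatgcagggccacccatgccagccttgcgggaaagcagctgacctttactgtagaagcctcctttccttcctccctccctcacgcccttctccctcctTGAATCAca
Gpnmb, chr6:49036268-49036517: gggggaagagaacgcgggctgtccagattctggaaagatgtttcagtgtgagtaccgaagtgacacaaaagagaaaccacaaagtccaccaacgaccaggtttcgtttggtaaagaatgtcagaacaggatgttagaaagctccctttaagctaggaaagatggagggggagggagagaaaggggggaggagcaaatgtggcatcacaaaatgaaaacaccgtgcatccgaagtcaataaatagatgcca
Itgax and Trem2 each held 1 match, to the AP-1 letters, 56 and 9 bases before the start, and this motif was present in 6.75% of 32851 upstream windows of the same length. No motif searched matched in the windows of Itgam and Gpnmb. Upstream sequence was found for 7 of the 8 genes. Ccr2 and Lgals3 also held no match, and Mmp12, with 2 annotated starts, held an ETS core and a C/EBP match before one and an AP-1 and a MITF/TFE match before the other. These matches are letters in a window and show nothing of binding.

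The recruitment pair is the receptor gene Ccr2, of inflammatory monocytes, and the gene of its ligand, Ccl2, which hepatocytes, stellate cells and macrophages can make. Ccr2 had deposited values of 5.22, 4.996, 5.53 and 4.72 in chow and 8.004, 7.75 and 6.63 in HFD. The lowest HFD value, of replicate 3, was still 1.10 above the highest chow sample. Ccr2 rose 5.09-fold (log2 difference 2.35, SE 0.35, limma adjusted p = 0.0330), with 1 of its 4 chow values below the highest floor and none below the lowest. Raising that value to the floor gave 4.90-fold.

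Ccl2 had deposited values of 6.52, 7.45, 7.48 and 6.51 in chow and 10.50, 8.60 and 8.93 in HFD. Its chow values formed 2 pairs, and among HFD samples replicate 1 stood apart. The log2 difference was 2.35 with an SE of 0.50, a 5.12-fold difference that did not pass (limma, adjusted p = 0.0672), and it was 3.43-fold without HFD replicate 1. Ccl2 is printed 10 times on each array, and the SD between these spots was 0.06 to 0.09 on the log2 scale on the HFD arrays. In scanner level, Ccl2 read 0.88, -0.97 and -0.67 in HFD replicates 1, 2 and 3, and spot error covers only the technical spread within an array. Ccl7, a chemokine gene next to Ccl2 on chromosome 11 that also signals through CCR2, had values of 2.50, 4.44, 4.21 and 2.60 in chow and 7.47, 5.50 and 5.93 in HFD, with the same samples high and low in each group. It did not pass (limma, log2 difference 2.86, SE 0.67, adjusted p = 0.0829), and all 4 chow values lay below the highest floor.

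The calls rested on all samples together. Gpnmb, Itgam and Ccr2 all lost their call when any 1 of chow replicates 1 to 4 or HFD replicates 1 and 2 was left out, with adjusted p-values of 0.0691 to 0.142 in limma, while the direction stayed. Without HFD replicate 3 all of them passed, with adjusted p-values of 0.0151 to 0.0332, and Itgax joined them. Ccl2 did not pass without any 1 sample (adjusted p of 0.129 to 0.186). Among all genes, 317 were called higher with all samples. The number was 0, 48, 4 and 2 without chow replicates 1, 2, 3 and 4. It was 0, 4 and 239 without HFD replicates 1, 2 and 3. The loss of calls was thus shared by the table and is not particular to the macrophage genes.

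**Figure D3:**
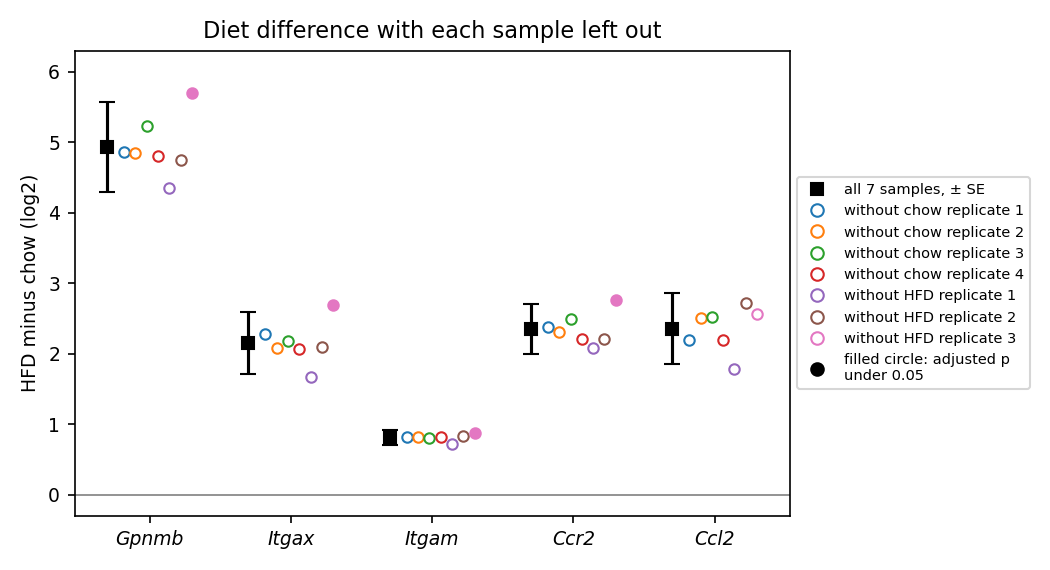
Log2 difference HFD minus chow (vertical axis) of the 5 macrophage genes with all 7 samples (black squares, bars are the SE) and with 1 sample left out (circles, filled where the adjusted p was under 0.05). The filled circles all belong to the fit without HFD replicate 3, and the circle without HFD replicate 1 is the lowest for each gene.

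The 8 genes varied together among the HFD arrays, a measure that did not use the chow values. All 8 were highest on HFD replicate 1, as were 29.2% of the 19500 genes measured above background on 2 or more of these arrays. Of the 8, 7 were lowest on HFD replicate 3 (27.9% of all these genes), the exception being Ccl2. Among these, Itgam counts through its bright probe, while its dim probes were lowest on replicate 2. Mmp12 was not well above background on replicate 3. For 7 of the 8, HFD replicate 1 exceeded HFD replicate 3 by at least 1 on the log2 scale (4.20% of all these genes), the exception being Itgam at 0.25. The median difference between these arrays was 1.87 for the 8 genes and -0.08 for all genes. Among the 801 table genes higher in HFD, 61.0% had their highest table value in HFD replicate 1, so part of the table shares this order. With the scaling percentile taken over probes well above background, which moved the median of all genes to -0.49, HFD replicate 1 was highest for 6 of the 8 genes (10.4% of all genes), the exceptions being Itgam and Trem2. Under the remaining 3 scalings tried HFD replicate 1 was highest for all 8. HFD replicate 3 was lowest for 6 of the 8 with that percentile (1944 of the 19500 genes) and for 6 with normexp background correction (5648 of them).

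Lists of other macrophage and monocyte genes were mostly highest on HFD replicate 1, but not all of them lowest on replicate 3. Of 24 measured companions of lipid-associated macrophages, 19 were highest on HFD replicate 1 and 18 lowest on HFD replicate 3, with a median difference of 0.58 between these arrays. With the percentile over probes well above background 13 were highest on replicate 1 (median difference 0.17). Named after their values were seen, Spp1 (osteopontin) and Lpl (lipoprotein lipase) had a difference between replicates 1 and 3 of 2.03 and 1.75, and Apoe (apolipoprotein E) and Ctsl (cathepsin L) one of -0.47 and -0.24. Of 20 monocyte and recruitment genes 14 were highest on HFD replicate 1 (median difference 1.19) and 10 lowest on replicate 3. Of 19 resident Kupffer cell genes 16 were highest on replicate 1 (median difference 0.71) and 8 lowest on replicate 3. The median of replicate 2 minus replicate 3 was -0.05 for the recruitment genes and -0.07 for the Kupffer cell genes. Highest on replicate 1 were also, of 9 metalloproteinase and inhibitor genes 8 (0.80), and of 9 beta2 integrin and galectin genes 5 (0.62). With the percentile over probes well above background, 14 of the 20 recruitment genes (0.78) and 13 of the 19 Kupffer cell genes (0.30) were highest there. So were 6 of the 9 metalloproteinase and inhibitor genes (0.39) and 4 of the 9 beta2 integrin and galectin genes (0.21). The Kupffer-restricted genes Clec4f and Timd4, also named after their values were seen, read 3.29, 2.49 and 2.80 and -1.46, -3.59 and -2.44 in replicates 1, 2 and 3, both lowest on replicate 2, while C1qa, C1qb and C1qc, complement genes of the same list, were lowest on replicate 3. For Gpnmb, Trem2, Itgax and Ccr2, replicates 1 and 2 were the nearer pair, and for Lgals3, Itgam and Ccl2 replicates 2 and 3 were. The nearer pair of Mmp12 cannot be given, since replicate 3 was not well above background.

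Markers of other cells varied among these arrays as well. Of 11 dendritic cell genes 9 were highest on HFD replicate 1, with a median difference from replicate 3 of 1.06. When the percentile was taken over probes well above background, 7 of 11 were (0.65). Also highest on replicate 1 were 7 of 10 stellate cell and fibroblast genes (0.46, and 5 of 10 with 0.05 with that percentile). So were 5 of 8 lymphocyte genes (0.37, and -0.04 with that percentile) and 2 of 6 neutrophil genes (0.06, and -0.35 with that percentile). Hepatocyte genes ran the other way: 0 of 12 were highest on HFD replicate 1, and their median difference was -0.48. Their median level was 7.17, 7.37 and 7.39 in replicates 1, 2 and 3. Under quantile normalization the hepatocyte median difference was -0.01, with 5 of 12 highest on replicate 1. Of 6 adipocyte genes Adipoq, Lep and Plin1 were well above background on fewer than 2 HFD arrays, and the other 3 were lower on HFD replicate 1 than on replicate 3. The part of cell composition, and of the higher background on HFD replicate 1, in the order of the macrophage genes was not tested.

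**Figure D4:**
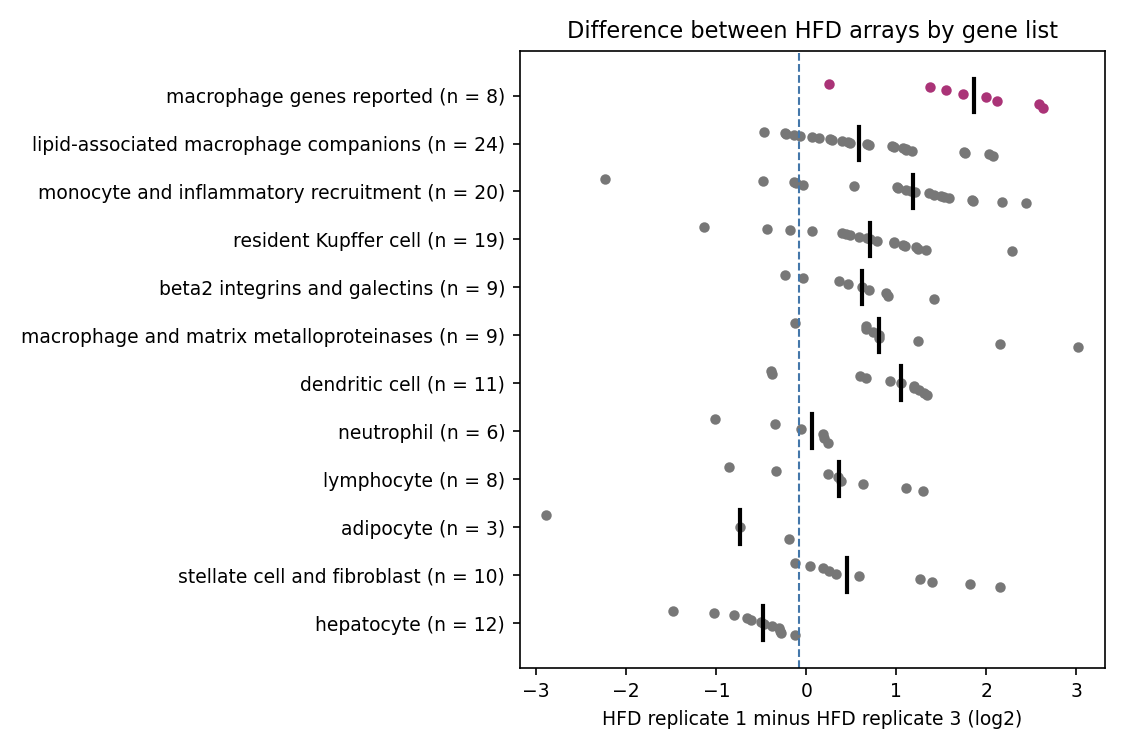
Difference between HFD replicate 1 and HFD replicate 3 in scanner level (log2, horizontal axis) for each gene of the 8 macrophage genes (purple) and of 11 marker lists (grey), with a black bar for the median of a list and a dashed line for the median of all genes. The 8 macrophage genes have a median of 1.87 and the hepatocyte genes one of -0.48.

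In the table, few of these other genes were listed. Of the 24 companions of lipid-associated macrophages only Lgals1 was in the table, and it rose. Lgals1, galectin-1, had values of 12.02 to 12.24 in chow and 14.60, 14.21 and 13.74 in HFD, a 4.04-fold rise (limma, adjusted p = 0.0220) that passed without chow replicate 2 (adjusted p = 0.0437) and without HFD replicate 3 (0.0151), and not without any 1 of the others (0.0610 to 0.0982). None of 19 resident Kupffer cell genes was in the table, nor any of 9 neutrophil, 11 lymphocyte or 6 adipocyte genes. Of 25 monocyte and recruitment genes only Ccl7 was listed. Of 13 metalloproteinase and inhibitor genes only Mmp2, gelatinase A, was listed, and it rose 1.995-fold (adjusted p = 0.0489 in limma, and 0.0506 with table columns centred on their medians). Of 12 beta2 integrin and galectin genes Lgals1 alone was listed. Of 12 dendritic cell genes 5 were listed, all with higher values in HFD, and H2-Eb1, an MHC class II chain, rose 3.55-fold (adjusted p = 0.0489 in limma). Cd209a, Ccr7, H2-Ab1 and Cd74 did not pass (adjusted p of 0.0540 to 0.0639 in limma). Of 10 stellate cell genes 3 were listed, and none passed, Col3a1 having the smallest adjusted p (0.0550 in limma). Of 12 hepatocyte genes 3 were listed, all with lower values in HFD, and Serpina1a fell by 0.52 on the log2 scale (adjusted p = 0.0460 in limma). The calls of Mmp2 and H2-Eb1 were lost when any 1 sample other than HFD replicate 3 was left out (adjusted p of 0.111 to 0.187 in limma), and that of Serpina1a when any 1 sample was (0.0686 to 0.183). Absence from the table leaves the diet difference of a gene unmeasured here.

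Over the 7 samples, the named table genes whose values ran most like those of each macrophage gene were found by Pearson r, which in this table is carried largely by the diet difference itself. They were Arrb1, Gprc5b and Gstm2 for Gpnmb (r of 0.995 to 0.998), Emb, Icosl and Nupr1 for Itgax (0.990 to 0.999), Tmem86a, Zfp663 and Idua for Itgam (0.996 to 0.997), and Gstm2, Csprs and Gpnmb for Ccr2 (0.995 to 0.997). For Ccl2 they were Atf3, a stress-induced transcription factor gene, Ccl7 and Cd83 (0.982 to 0.992). Gprc5b rose by 3.29 on the log2 scale (SE 0.36, limma adjusted p = 0.0235) and Atf3 by 2.20 (SE 0.39, adjusted p = 0.0472).

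Neighbours on the chromosome gave mixed readings on the HFD arrays. Mmp13, a collagenase gene beside Mmp12, read -2.70, -4.10 and -5.72 in replicates 1, 2 and 3, and was well above background on all 3. It had the same order of replicates as Mmp12. Malsu1, beside Gpnmb, read 3.60, 3.77 and 3.77 and did not share it. Itgad, the integrin gene on the far side of Itgax, was not well above background on any HFD array. Of these, none is in the table.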

How the data were processed

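Liver RNA (0.5 microgram) was labelled with Cy3 and hybridised to 1-colour arrays, per the labels. The deposited scanner files hold spot intensity from Feature Extraction 10.7.3.1 per the file headers (9.1 in the submitters' processing notes), with a background-subtracted processed signal and flags. For 1615 probes there is also a value table, which holds log2 values processed by the authors. Its normalization and the choice of its probes were not given in the sources used here. Each HFD column was a rising function of its scanner signals (lowest Spearman's rho 0.999999), so scale and direction are known there, while for chow the scale stays unknown. Medians of the columns ranged from 9.55 to 9.85, without centring.

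Probes were named through RefSeq accessions of GRCm38.p6, used for names, gene order and upstream sequence (RefSeq); 27228 of 39429 matched. Control and outlier spots were left out, spots of a probe averaged, and the brightest probe of a gene used. Limma 3.58.1 (R 4.3.3) compared diets in the table. Each gene's variance was shrunk toward that of 18058 genes outside the table (prior variance 0.0363 and prior degrees of freedom 2.11). Benjamini-Hochberg adjustment covered 32451 genes, and those outside the table counted as not significant. The fit was also run on simulated data with independent noise and both diets on the same scale. That run does not cover the unknown scale of the chow values. Replicates 1 to 3 of the diets shared a number, the labels name no pairing, and the main fit did not pair them.

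The 8 genes and the 11 lists were chosen with earlier results of these data known. Named were the 8 genes, per list up to 4 passing table genes or else that with the smallest p, and per table gene the 3 with the highest Pearson r. The number of arrays limits precision, and no spot was saturated. The alternatives were other variance priors, adjustments, scalings, probes and floors, samples left out, a replicate block, and the scanner files labelled chow.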

Additional observations from a re-analysis of the deposited data

Results flagged for a closer look

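In chow, the Gpnmb value of replicate 3 (3.45) stood 1.14 above the nearest of the other 3 chow values, a gap of 0.873 of the group's range, above Dixon's 95% critical value for 4 samples. About 1 in 20 groups passes this by chance. All 4 values lie below the detection floors of the HFD arrays. No other macrophage gene of the table passed in chow, and groups of 3 were not tested.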

How the results depend on the processing

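With 3 of 5 genes called higher as the main count, the count was 5 with the table's own variance prior and 5 with adjustment over table genes alone, and 0 without moderation and 0 with the replicate block; leaving out 1 sample gave 0 to 4. In limma, each count of 0 had 5 genes at an unadjusted p under 0.05. Since the table was selected on this comparison, that is not independent support. Among all genes, 317 were called higher, against 552 with the table's own prior, 6 without moderation and 0 with the replicate block. Leaving out 1 sample gave 0 to 239. Adjustment over the table alone gave 801, which is every table gene higher in HFD. Deviations of same-numbered samples correlated at -0.102, 0.138 and 0.028, and chow replicate 1 correlated best with HFD replicate 3 (0.143). Correlations this weak, over genes selected on the diet difference, cannot decide whether the numbers pair the samples. Of the listed companion genes 3 were called higher, 8 with the table's own prior, 0 with the replicate block and 0 to 8 without 1 sample. Centring the table's columns took 0.21 from each difference and left the calls of the 5 genes as they were. Against the scanner files labelled chow, which do not match the table, Gpnmb (-1.41) and Ccl2 (-1.77) reversed, and 80.1% of the 20927 genes tested there were called. With the percentile over probes well above background, Itgam on HFD replicate 1 minus replicate 3 reversed to -0.16. Normexp used the median signal, a choice made after the data were seen, and gave 1.05 for Mmp12 against 2.59. The causes were not tested. Signal over background limits Mmp12 on HFD arrays and, if the HFD floors hold for chow, Gpnmb and Ccr2 in chow.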

Other observations

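The scanner files labelled chow, which enter the comparisons above only as an alternative, gave these scanner levels over the 4 files on the same scale. Gpnmb read -0.69 to -0.59, Trem2 -3.48 to -3.02, Lgals3 5.26 to 5.37, Itgam 2.21 to 2.57 and Ccl2 1.09 to 1.82, all well above background on 4 of 4 arrays. Itgax read -6.18 to -5.53 and was well above background on 3, Ccr2 was well above background on 1 (-4.28), and Mmp12 on none. In the table, chow values of Gpnmb lay below every detection floor, while the same probe was well above background in all 4 of these files.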
